A study of Caenorhabditis elegans with 2 samples.

Results

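The sec and Rab genes of Caenorhabditis elegans encode much of the machinery that moves proteins through the secretory pathway. They were taken here as every protein-coding gene whose name starts with sec- or rab-, plus unc-108, the worm Rab2 gene, in the Ensembl release 115 annotation of the WBcel235 genome. The rule gave 40 genes of 19973 protein-coding genes on nuclear chromosomes, and it used names only, but this group of genes was chosen for description with earlier results of these data known. By role, 4 genes act in protein entry into the endoplasmic reticulum (ER), 7 in the COPII coat, 6 in the exocyst, 21 are Rab GTPase genes and the other 2, sec-20 and sec-22, encode SNARE proteins.

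The data are from chromatin immunoprecipitation and sequencing (ChIP-seq) of strain RW12203, in which ctbp-1 on X carries the tag TY1::EGFP::3xFLAG (allele st12203), inserted with CRISPR. CTBP-1 is the worm CtBP, one of a family of proteins known as corepressors of transcription. Whole L4 larvae were used at 48 hours after synchronisation by bleaching and L1 starvation, and chromatin was recovered with an anti-GFP antibody. All animals carried the tagged allele, 2 biological replicates made up the single group, and untagged or input libraries were not analysed here. The design holds no second condition to compare, and a peak says nothing of the tissue it came from.

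Proteins bound for secretion or for membranes enter the ER through the Sec61 channel, are sorted at ER exit sites into vesicles with a COPII coat, pass the Golgi and reach the plasma membrane, where the exocyst tethers the vesicles. SNARE proteins drive the fusion of membranes. Rab GTPases switch between a GTP-bound and a GDP-bound state and give each compartment its identity, from the ER and the Golgi to synaptic vesicles, endosomes and lysosomes.

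The peak list made from both replicates together, called the combined list here, held 2911 nuclear peaks past the threshold of reproducibility, and the thresholded lists of replicates 1 and 2 held 1387 and 1699. The threshold is a global irreproducible discovery rate (IDR) of 0.01, a -log10 value of 2. Signal is the authors' value for a peak, and its scale is not stated. The combined value came to 1.00 times the sum of both replicate values at the median promoter peak. Peaks were ranked only within a list, and ratios between the replicates' lists are descriptions, since a difference in scale or depth between them is not known. No sequencing depth was stated.

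A promoter summit is the position of maximum signal of a thresholded peak that fell between 1000 bp upstream and 250 bp downstream of an annotated transcript 5' end. Of the 40 sec and Rab genes, 15 (37.5%) had a promoter summit, against 7.12% of all protein-coding genes. The list of replicate 1 alone gave 9 of 40 (22.5%, background 3.78%) and that of replicate 2 alone gave 12 of 40 (30%, background 4.52%). The shares were set beside the background and were not tested. When each summit was given only to the gene with the nearest 5' end, 11 of 40 kept one (27.5%, background 5.78%).

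The roles differed in their counts, although each role holds few genes. A promoter summit lay at 3 of the 4 ER entry genes, 2 of the 7 COPII genes, 3 of the 6 exocyst genes, 6 of the 21 Rab genes and 1 of the 2 SNARE genes (background 7.12%). In the list of replicate 1 alone (background 3.78%) these counts were 2, 1, 1, 5 and 0. In that of replicate 2 alone (background 4.52%) they were 3, 2, 1, 6 and 0. The Rab count was thus 5 or 6 in these lists, while the exocyst count of 3 was 1 in either replicate and also when only the nearest gene was counted. That exocyst gene was sec-15 in both replicates' lists but sec-3 when only the nearest gene was counted. Of the Rab genes, rab-7 was counted in replicate 2 through a summit 805 bp upstream, which lay nearer to W03C9.5. With only the nearest gene counted, rab-7 stayed through another summit, 139 bp downstream, where neither replicate had a thresholded summit within 100 bp.

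**Figure D1:**
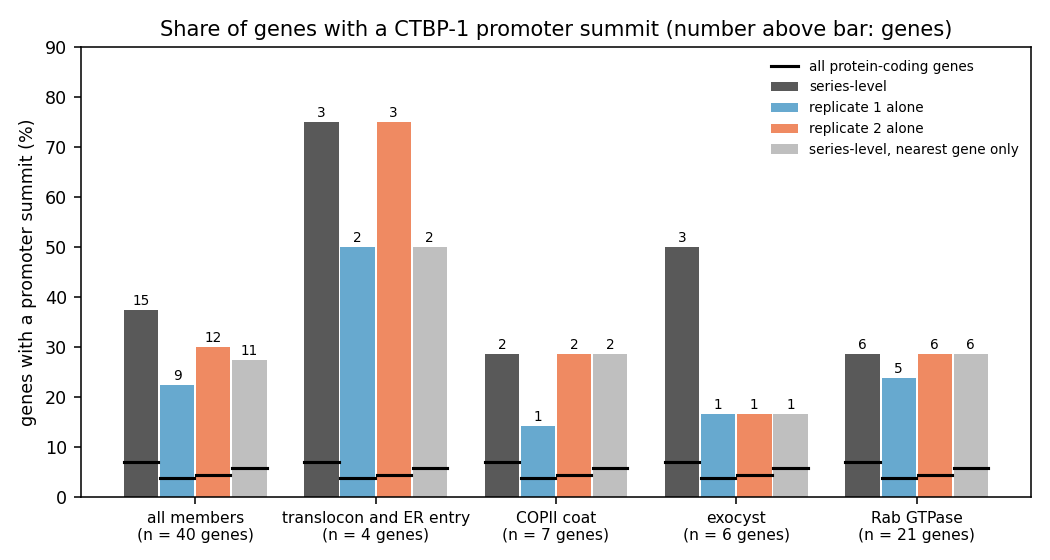
Bars give the percentage of genes with a promoter summit for all 40 members and for each role with more than 2 genes, in the combined list, in each replicate's own list and with each summit given to its nearest gene. Numbers above bars are genes, and black lines give the percentage over all protein-coding genes in the same setting (7.12% in the combined list). Every bar stands above its line, but for the ER entry, COPII and exocyst roles 1 gene is enough for that. The SNARE genes, with no promoter summit in any of these settings except the combined list, are not drawn.

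Genes for the Sec61 channel, through which new proteins cross into the ER, all carried a promoter summit. At sec-61.G, the gamma subunit gene, the summit lay 238 bp upstream of the 5' end, between genes on chromosome V. Its signal was 289.4 in the combined list, 154.8 in replicate 1 and 137.3 in replicate 2, the strongest promoter peak of any sec or Rab gene and rank 69 of the 2911 nuclear peaks. The window of this summit also belonged to F32D8.13, whose 5' end lay 838 bp away on the same strand. The 151 bp centred on the sec-61.G summit and on that of sec-61.B are shown because they are the strongest ER entry peaks. Capitals mark matches to the motifs GAGAGA and CCACCC on either strand, and all sequences are the plus strand of the RefSeq WBcel235 genome.
sec-61.G, chrV:10897306-10897456: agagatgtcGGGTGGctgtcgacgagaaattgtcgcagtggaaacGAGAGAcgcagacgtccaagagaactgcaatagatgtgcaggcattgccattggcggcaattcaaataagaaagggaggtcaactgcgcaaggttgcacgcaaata
sec-61.B, chrIV:2389029-2389179: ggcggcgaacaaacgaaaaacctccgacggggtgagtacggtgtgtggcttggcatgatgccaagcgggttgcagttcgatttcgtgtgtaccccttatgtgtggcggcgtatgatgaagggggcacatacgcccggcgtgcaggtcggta

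The beta subunit gene sec-61.B shared its peak with another gene of ER entry. Its summit (IV 2389104) lay 429 bp upstream of sec-61.B and 341 bp upstream of trap-3 on the opposite strand, which encodes a subunit of the translocon-associated protein complex. The signal there was 213.6 in the combined list, 112.4 in replicate 1 and 114.6 in replicate 2, and both replicates passed their own threshold. The peak lies between both genes, and the data do not assign it to either.

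At sec-61.A, the gene of the pore-forming alpha subunit, the summit fell 102 bp downstream of the 5' end, inside the annotated 5' UTR, and the ribosomal gene rps-18 began 517 bp away on the opposite strand. Signal was 68.04 in the combined list, 26.9 in replicate 1 and 50.9 in replicate 2, and replicate 1 missed its own threshold. The fourth ER entry gene, sec-11, which encodes the catalytic subunit of the signal peptidase, had no thresholded promoter summit. Its strongest ranked promoter peak had a signal of 31.9 in the combined list, 22.9 in replicate 1 and 12.05 in replicate 2.

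Among the COPII genes, sec-24.1 and sec-16A.2 had a promoter summit. SEC-24 proteins form the part of the inner coat that binds cargo, and SEC-16 proteins scaffold the ER exit site. At sec-24.1 the summit lay 160 bp upstream (IV 11566354), with a signal of 115.2 in the combined list, 57.9 in replicate 1 and 53.4 in replicate 2. At sec-16A.2 it lay 306 bp upstream (X 8286943), with 84.00, 32.3 and 56.9, and only replicate 2 passed its own threshold. In both cases no other protein-coding gene shared the summit. These sequences are shown because no 5' end of another protein-coding gene competes for them, and GAGAGA or its reverse complement is in capitals.
sec-24.1, chrIV:11566279-11566429: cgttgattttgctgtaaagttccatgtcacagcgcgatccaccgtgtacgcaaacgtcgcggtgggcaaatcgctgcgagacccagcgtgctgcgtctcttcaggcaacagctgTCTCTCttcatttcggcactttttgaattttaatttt
sec-16A.2, chrX:8286868-8287018: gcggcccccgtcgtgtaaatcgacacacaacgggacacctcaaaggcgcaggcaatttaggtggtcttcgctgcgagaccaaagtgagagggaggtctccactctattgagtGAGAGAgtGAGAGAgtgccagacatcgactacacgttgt

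Each of these genes has a second copy without a promoter summit. The coding sequences of sec-24.1 and sec-24.2 were 61% identical over 2785 aligned bases, and the strongest ranked promoter peak of sec-24.2 had a signal of 19.95 in the combined list, none in replicate 1 and 17.1 in replicate 2. Those of sec-16A.1 and sec-16A.2 were 66.8% identical over 3324 aligned bases, and sec-16A.1 reached 39.5 in the combined list, had no ranked promoter peak in replicate 1 and reached 20.3 in replicate 2. The remaining COPII genes had no thresholded promoter summit. They were sec-12, which activates the GTPase that starts coat assembly, sec-23 of the inner coat and sec-31 of the outer coat. No ranked peak of the combined list or of either replicate had its summit in the sec-12 window, and the strongest combined values were 21.3 at sec-23 and 39.2 at sec-31.

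The exocyst count rested on peaks of very unequal strength. At sec-15, the summit lay 318 bp upstream (X 8836033) with a signal of 219.4 in the combined list, 115.3 in replicate 1 and 101.7 in replicate 2. It also lay 17 bp inside the 5' UTR of C28G1.2, which runs on the opposite strand, and within 200 bp of a tRNA gene, and both of these were nearer than sec-15. At sec-3 the summit was 183 bp upstream (X 3100035) with a signal of 63.05 in the combined list, 27.4 in replicate 1 and 37.3 in replicate 2. This was the only exocyst gene that was nearest to its own summit, and neither replicate passed its own threshold there.

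At sec-6 the promoter summit was a weak peak beside a stronger one. It lay 940 bp upstream (II 5358612) with a combined signal of 2.10, which only 3 nuclear peaks undercut, and neither replicate had a summit within 100 bp. A peak with a signal of 89.2 overlapped it, with a summit 209 bp farther away, 1149 bp upstream of sec-6 and just outside the window. That stronger peak had 43.6 in replicate 1 and 45.3 in replicate 2, and the 5' end of bmy-1 lay 83 bp from the weak summit. A second and weak summit at sec-15, 517 bp upstream, lay 199 bp from the strong one in the same way. Of the 2911 nuclear peaks, 123 had a signal under 18.2, the median of the ranked list, and all 123 overlapped a stronger thresholded peak. Without these weak peaks, 14 of the 40 genes had a promoter summit (background 7.08%).

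The exocyst genes sec-5, sec-8 and sec-10 had no thresholded promoter summit. The strongest ranked promoter peak had a combined signal of 23.9 at sec-5 and 18.9 at sec-10, and sec-8 had none there or in either replicate. Of the SNARE genes, sec-22, which acts between the ER and the Golgi, had a summit 277 bp upstream (X 1035271) with 65.6 in the combined list, 31.9 in replicate 1 and 33.8 in replicate 2. The summit was only 15 bp from the 5' end of stau-1, which encodes a double-stranded RNA-binding protein on the opposite strand. Both replicates missed their own threshold. At sec-20 the strongest ranked promoter peak had a signal of 22.3.

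**Figure D2:**
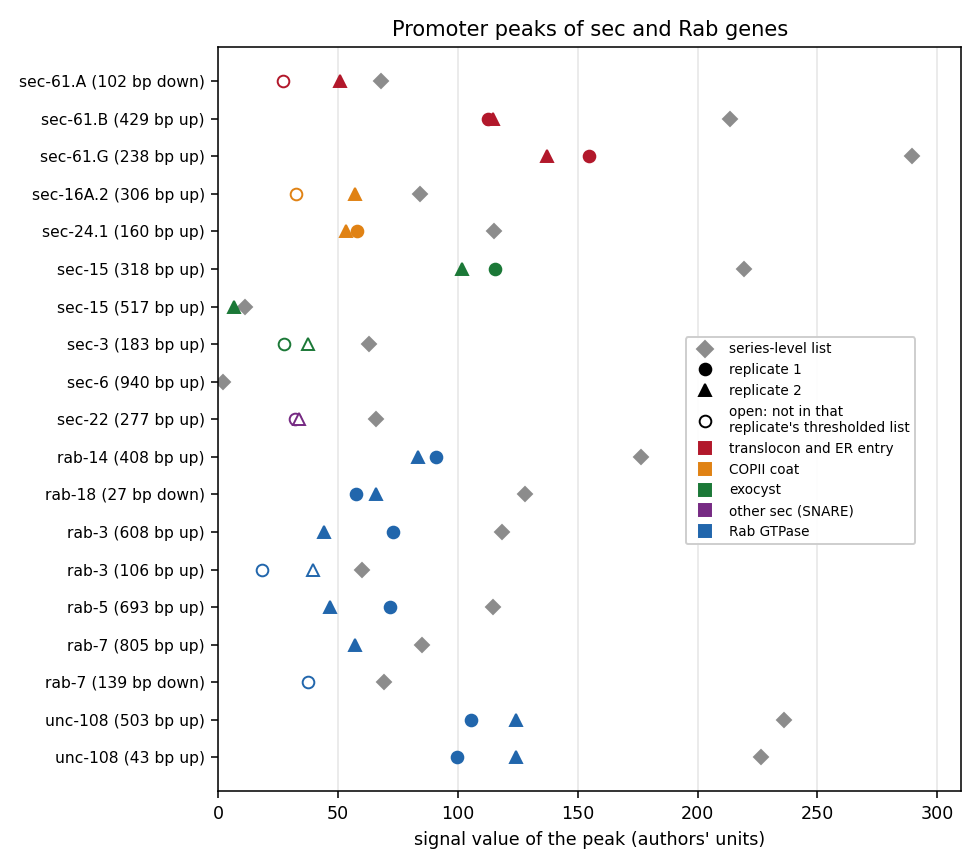
Each row is a promoter peak of a sec or Rab gene, with its distance from the 5' end, and the horizontal axis is the authors' signal value. Diamonds are the combined list, circles replicate 1 and triangles replicate 2, and an open symbol marks a replicate that missed its own threshold; sec-61.G (289.4) and the pair of unc-108 peaks (236.1 and 226.5) are at the right and the sec-6 peak (2.10) at the left.

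Of the Rab genes, unc-108 had the strongest promoter peaks. UNC-108 is the worm Rab2, known for its part in the maturation of dense core vesicles in neurons. One summit lay 43 bp upstream of the first 5' end of the gene (I 3822840), with a signal of 226.5 in the combined list, 99.7 in replicate 1 and 124.2 in replicate 2. The other lay in an intron, 503 bp upstream of a 5' end inside the gene (I 3824444), with 236.1, 105.5 and 124.2. Both peaks passed the threshold in both replicates, and no other protein-coding gene shared either window. Among the 4 distinct 5' ends annotated for the gene, the peaks thus lay at an outer and an inner start.

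A similar arrangement was found at rab-3, whose product sits on synaptic vesicles and acts in transmitter release. Here the stronger summit lay in an intron, 608 bp upstream of an inner 5' end (II 5725338), with a signal of 118.3 in the combined list, 72.8 in replicate 1 and 43.97 in replicate 2. The weaker lay 106 bp upstream of the outer 5' end (II 5727959), with 59.99, 18.2 and 39.7, and neither replicate passed its own threshold there. The intronic peak was thus the higher in each list. The intronic rab-3 peak is shown as the stronger peak of that gene and the rab-14 peak as the strongest Rab peak after those of unc-108, and GAGAGA is in capitals where it occurs.
rab-3, chrII:5725263-5725413: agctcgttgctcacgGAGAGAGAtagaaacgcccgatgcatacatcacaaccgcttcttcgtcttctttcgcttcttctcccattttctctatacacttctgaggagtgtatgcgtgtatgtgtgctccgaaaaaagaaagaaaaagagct
rab-14, chrX:15606968-15607118: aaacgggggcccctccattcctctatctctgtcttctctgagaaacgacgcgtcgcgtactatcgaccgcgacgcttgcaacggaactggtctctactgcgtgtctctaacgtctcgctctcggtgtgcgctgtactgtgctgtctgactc

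The Rab genes of the endosomal system with a summit were rab-5, rab-7 and rab-14. RAB-5 marks early endosomes, RAB-7 late endosomes and lysosomes, and RAB-14 acts on endosomes and phagosomes. At rab-14 the summit was 408 bp upstream (X 15607043), with a signal of 176.4 in the combined list, 90.95 in replicate 1 and 83.5 in replicate 2, and nipi-3, a Tribbles-like kinase gene on the opposite strand, began 926 bp away. A further thresholded peak with a signal of 161.8 lay 1055 bp upstream of rab-14, just outside the window. At rab-5 the summit was 693 bp upstream (I 9307749), with 114.5, 71.7 and 46.5, and nmat-2, a nicotinamide mononucleotide adenylyltransferase gene on the opposite strand, began 905 bp away. In both cases the Rab gene was the nearer and both replicates passed their threshold.

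The peaks at rab-7 were less alike in both replicates. The summit 805 bp upstream (II 11967736) had a signal of 85.2 in the combined list and 57.03 in replicate 2, and no ranked peak of replicate 1 overlapped it. It lay nearer to W03C9.5, at 192 bp. The second, 139 bp downstream of the 5' end and in a coding exon (II 11966792), had 69.04 in the combined list and 37.6 in replicate 1, and the overlapping peak of replicate 2, with 36.6, had its summit 104 bp away. Neither replicate had a thresholded summit within 100 bp of this second summit.

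At rab-18, whose product is found at the ER and on lipid droplets, the summit lay in the 5' UTR, 27 bp downstream of the 5' end (III 1080748). The signal was 128.1 in the combined list, 57.6 in replicate 1 and 65.8 in replicate 2. Within the same window were the starts of kbp-4, a kinetochore protein gene 153 bp away, and par-2, a cell polarity gene 653 bp away, both on the opposite strand.

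**Figure D3:**
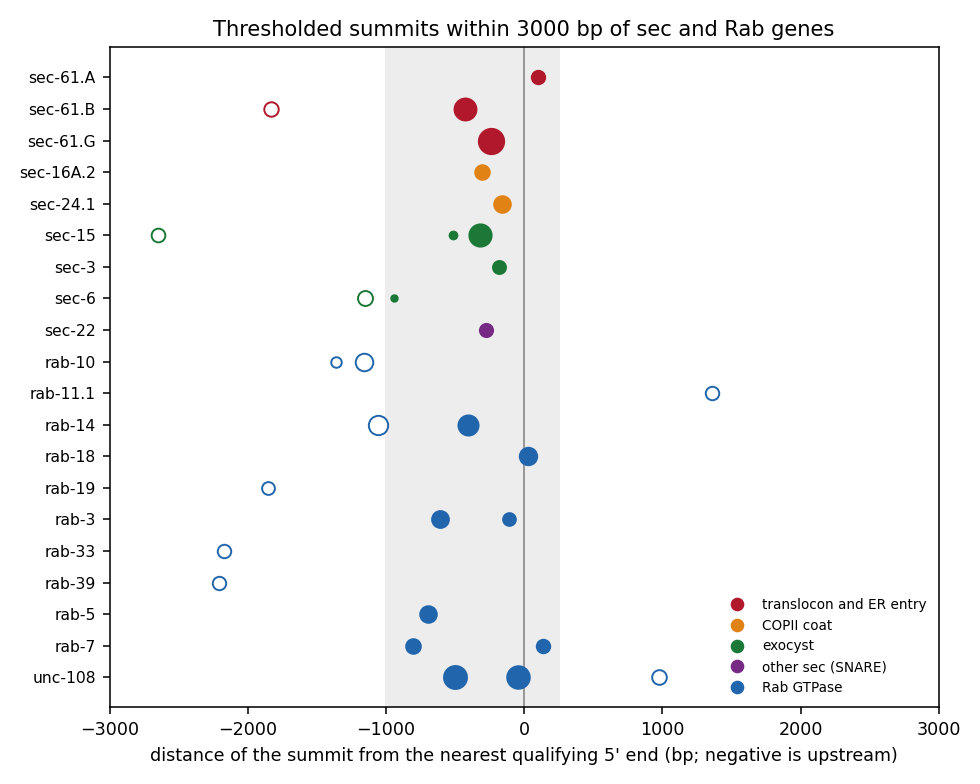
Each circle is a combined thresholded summit within 3000 bp of a sec or Rab gene, placed by its distance from the 5' end (negative is upstream), with its area growing with signal. The shaded band is the promoter window and open circles lie outside it, such as rab-10 (1162 bp upstream), rab-11.1 (1357 bp downstream) and the stronger peak at sec-6 (1149 bp upstream).

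The remaining 15 Rab genes had no thresholded promoter summit. Of Rab genes acting between the ER and the Golgi or at the Golgi, these were rab-1, rab-6.1, rab-6.2, rab-30 and rab-33. Of those acting in endosomes, recycling or at the cell surface, they were rab-8, rab-10, rab-11.1, rab-11.2, rab-21 and rab-35. The others were rab-19, rab-28, rab-37 and rab-39. The nearest thresholded summit lay 1162 bp upstream of rab-10, a recycling Rab gene, with a signal of 129.97, and rab-10 was the nearest gene to it. At rab-11.1 a summit in the 3' UTR lay 1357 bp from the 5' end, with a signal of 69.2. Distances were 1852 bp for rab-19, 2175 bp for rab-33, 2211 bp for rab-39 and from 5761 bp for rab-35 to 66720 bp for rab-1 in the other 10.

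Both copies were without a summit in the Rab pairs. The coding sequences of rab-11.1 and rab-11.2 were 85.2% identical over 594 aligned bases and those of rab-6.1 and rab-6.2 were 71.9% identical over 608. None of these 4 genes had a thresholded promoter summit. The strongest ranked promoter peak was 39.6 at rab-11.1 and 4.81 at rab-11.2, and 54.9 at rab-6.1 and 12.5 at rab-6.2, in the combined list.

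Closest to the IDR threshold from above were the weaker rab-3 peak (-log10 global IDR 2.06), sec-22 (2.22) and sec-3 (2.33). From below, the closest were rab-6.1 (1.84, signal 54.9 in the combined list, 35.00 in replicate 1 and 19.5 in replicate 2) and rab-33 (1.26, signal 47.3, with 20.5 in replicate 1 and no ranked promoter peak in replicate 2). Among the 25 members without a thresholded promoter summit, 22 (88%) had a ranked peak in the window of the combined list, with a median signal of 25.3, against 58.9% and a median of 25.98 for all genes without one. The ranked list is permissive, so these peaks are no evidence of binding.

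**Figure D4:**
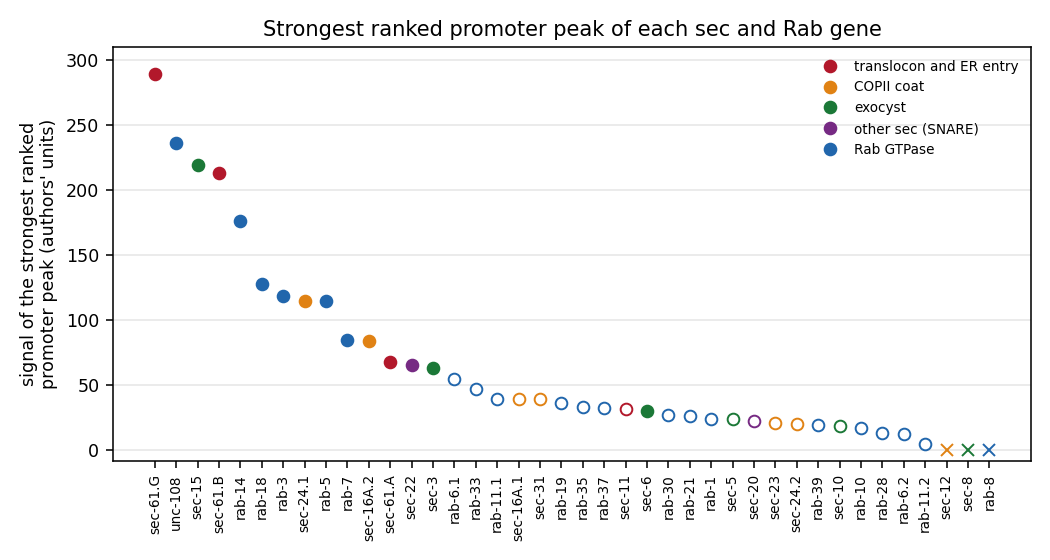
For each of the 40 genes, the point gives the signal of the strongest peak of the combined ranked list in its promoter window. Filled points had a thresholded promoter summit, open points had none and crosses mark genes without a ranked peak; sec-6 is filled at 30.4 because its own ranked maximum is not the weak thresholded peak, and rab-6.1 (54.9) is the highest open point.

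The 15 genes had 19 different promoter peaks, and both replicates could be compared at 15 of them. The log2 ratio of replicate 2 to replicate 1 had a median of 0.08 and an SD of 0.53 over these peaks, against 0.06 and 0.55 over 1135 promoter peaks of all genes. Of the 19 peaks, 10 (52.6%) passed the threshold in both replicates, compared with 35.9% of 1303 promoter peaks. A further 4 passed it in replicate 2 alone, none in replicate 1 alone, and 5 passed it in neither (26.3%, against 36.5% of all promoter peaks). Passing was scored as a thresholded summit of that replicate within 100 bp, so overlapping peaks with summits farther away were not counted. Of the 40 genes, 9 had a peak thresholded in both replicates (22.5%, against 2.95% of all genes), and these were sec-61.B, sec-61.G, sec-24.1, sec-15, rab-14, rab-18, rab-3, rab-5 and unc-108.

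**Figure D5:**
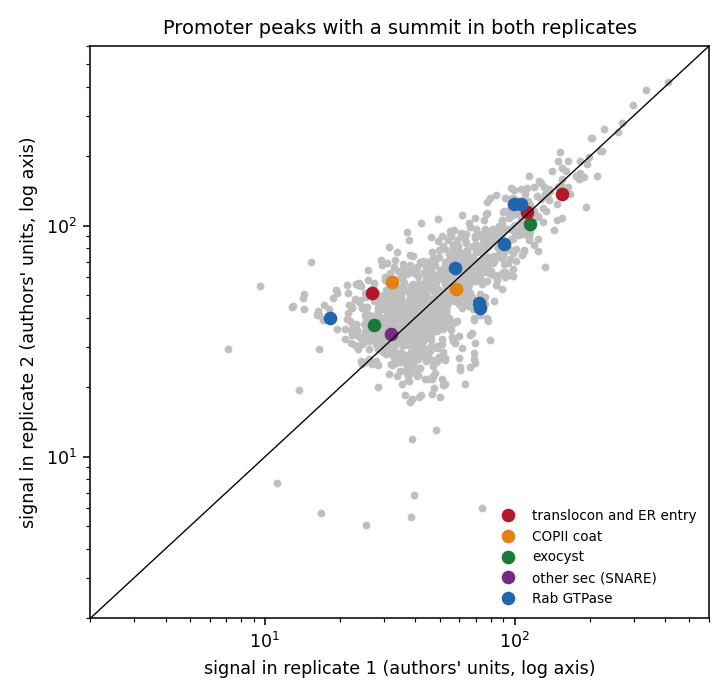
Signal in replicate 1 against signal in replicate 2, both on log axes, for promoter peaks with a summit in each replicate within 100 bp of the combined summit. Grey points are peaks of other genes, coloured points are the 15 peaks of sec and Rab genes, and the line marks equal printed values, as a guide only since the scales of the lists may differ; the member peaks lie within the grey cloud.

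Strength and position were set beside those of all promoter peaks. The strongest promoter peak per gene had a median signal of 115.2 over the 15 genes, with a range of 2.10 to 289.4, against a median of 94.5 over the 1422 genes with a promoter summit. The median distance from the 5' end was 318 bp, against 270.5 bp. Neither difference was tested. Of the 19 peaks, 11 (57.9%) lay in the window of more than 1 gene, against 21.9% of all promoter peaks, and 4 of the 15 genes (26.7%) had more than 1 promoter summit, against 11.3%. Both sec-15 peaks are among the shared ones, its second summit is the weak peak described above, and these shares were not tested either.

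Genes with several starts have more windows, and genes with close neighbours can share one, so the counts were also taken within such classes. With no other 5' end within 1000 bp, 7 of 23 members (30.4%) had a promoter summit, against 5.76% of all such genes, and with another 5' end within that distance 8 of 17 (47.1%) did, against 563 of 5053. With a single 5' end the count was 8 of 29 (27.6%, against 5.29%), and with 2 or more it was 7 of 11 (63.6%, against 12.2%). By chromosome, 5 of the 7 members on X had a promoter summit (71.4%, against 8.42% of genes on X) and 10 of the 33 on autosomes did (30.3%, against 6.91%). Members on X with a summit were rab-14, sec-3, sec-15, sec-16A.2 and sec-22, and those without were rab-6.2 and rab-37. With only peaks thresholded in both replicates, sec-3, sec-16A.2 and sec-22 on X dropped out, as did sec-61.A, sec-6 and rab-7 on autosomes. With nearest 5' ends only, sec-15 and sec-22 on X and sec-61.B and sec-6 on autosomes did.

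The sequence around the summits was searched for 5 motifs on both strands, within 75 bp of the summit. GAGAGA was found at 7 of the 19 summits (36.8%), against 30.2% of the 1303 promoter summits of all genes. Those summits belonged to sec-61.G, sec-16A.2, sec-24.1, the stronger sec-15 peak, the intronic rab-3 peak and both unc-108 peaks. CCACCC was found at 3 summits (15.8%, against 5.99%), those of sec-61.G, sec-6 and rab-5, of which the sec-6 summit is the weak peak described above. The E-box CACGTG was found at 1 (5.26%, against 4.37%), the outer unc-108 peak. The core of the unfolded protein response element, TGACGTG, was at none of the 19 and at 2.92% of all promoter summits, and the longer ER stress element known as ERSE was at none and at 0.0767%. The windows had a median of 49.7% G or C, against 46.4%. With 100 bp on either side, GAGAGA was found at 36.8% of member summits and at 36.8% of all promoter summits. For CCACCC these shares were 15.8% and 7.83%.

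Other genes of the pathway were counted from 5 lists, and 26 of the 152 genes found in the annotation had a promoter summit (17.1%, against the background of 7.12%). In the lists of replicates 1 and 2 alone, 12 and 14 of the 152 did, against 3.78% and 4.52% of all genes. Of 20 partners in ER entry, 6 did (30%), and all 6 also did in each replicate's own list. They included hsp-3, an ER Hsp70 chaperone gene (signal 232.6, with 111.3 in replicate 1 and 127.2 in replicate 2), trap-3 with the peak it shares with sec-61.B, and dad-1, a subunit gene of the oligosaccharyltransferase (145.9, with 84.6 and 58.5), where tre-1 was nearer. Also among them were trap-2 (137.02), of the same complex as trap-3, and the signal peptidase subunit gene spcs-2 (122.6).

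Of 21 partners of the COPII and COPI coats, 3 did (14.3%), led by sar-1, the GTPase that starts COPII assembly, with a signal of 81.7 in the combined list, 23.7 in replicate 1 and 55.3 in replicate 2. The others were tmed-10 (67.3), a cargo receptor gene, and copg-1 (61.96), a COPI subunit gene. In the lists of replicates 1 and 2 alone, 0 and 1 of these 21 genes had a promoter summit, against 3.78% and 4.52% of all genes. Of 27 genes of the exocyst and other tethers outside the rule, 2 did (7.41%), cogc-3 of the Golgi COG complex (101.5) and vps-51 (96.4), where lin-35 was nearer. Of 34 SNARE and fusion genes, 3 did (8.82%), which were syx-5 (139.6, nearer to F55A11.1), snap-1 (94.6) and unc-18 (79.2). The tether and SNARE shares lay close to the background of 7.12%. In the lists of replicates 1 and 2 alone, the tether count was 0 and 2 of 27 and the SNARE count 1 and 2 of 34, with the same backgrounds of 3.78% and 4.52%.

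Regulators and effectors of Rab proteins had a promoter summit at 12 of 50 genes (24%). The 3 strongest were at cab-1, rme-4 and ccz-1. The product of cab-1 binds the Rab exchange factor AEX-3 (signal 152.1, with 84.2 in replicate 1 and 55.6 in replicate 2). RME-4 is an exchange factor for RAB-35 (133.4, with 60.2 in replicate 2 and no ranked summit of replicate 1 within 100 bp). CCZ-1 is part of the exchange factor for RAB-7 (119.03, with 68.5 and 39.99), and tag-65 was nearer to the ccz-1 summit. In each replicate's own list the count was 5 and 3 of 50, against 3.78% and 4.52% of all genes.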

How the data were processed

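Peaks came from 8 lists on build ce11, per the labels. Per the file listings, the alignments of both replicates went into each combined list. Aligner and peak caller: not given in the sources used here. The signal value is the authors' deposited value of a peak, and the deposited score is the IDR on a scaled range. In ranked lists a deposited -log10 value holds the global IDR. The 32 columns with values of single inputs in the 4 ranked lists were not used.

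The reference was WBcel235 (ce11 coordinates), with 29314 protein-coding 5' ends. Coordinates count from 1. Replicate values are those of the nearest ranked summit within 100 bp. Python 3.11.15, numpy 2.4.6 and Biopython 1.88 were used. Promoter assignment was tested on simulated data. Copies were compared by coding sequence, since no protein table was used. The members, lists and settings were chosen with earlier results of these data known, so shares were described and no test was made. Every member with a promoter summit is named, as are the 3 strongest genes of each other list. Genes named beyond these were chosen after their values were seen. Of 168 names in the other lists, 16 were not matched.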

Additional observations from a re-analysis of the deposited data

How the results depend on the processing

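Under 9 other settings and 2 more chosen after seeing the data, the count of sec and Rab genes moved by more than 1.5 times in 3. It became 9 of 40 without replicate 2 (background 3.78%) and among peaks at or above the median signal (background 4.16%). With only peaks thresholded in both replicates it was also 9 (background 2.95%). Leaving out each replicate in turn gave 9 to 12 of 40, 1 to 2 of 7 COPII genes and 1 of 6 exocyst genes (background 3.78% to 4.52%). Among peaks at or above the median signal, 1 COPII gene and 1 exocyst gene had a summit (background 4.16%), and with nearest 5' ends only 1 exocyst gene did (background 5.78%). The Rab and ER entry counts changed by at most 1.5 times under all 9 alternatives run for them, but they were not constant. From 500 bp upstream to 100 bp downstream, 4 of 21 Rab genes, 2 of 4 ER entry genes and 11 of 40 members had a summit (background 5.12%). ER entry was also 2 of 4 without replicate 2, among peaks at or above the median signal and with nearest 5' ends only. Losing 1 gene passes the limit of 1.5 times for a count of 2 but not for a count of 3. Over all genes, the count of 1422 became 755 to 903 without a replicate and 831 among peaks at or above the median signal. With 100 bp on either side, CACGTG was found at 2 of the 19 member summits (10.5%, against 5.3% of all promoter summits). The other alternatives moved no count by more than 1.5 times. No paired analysis was possible because there was 1 group. Depth is unknown, so a gene without a peak may be below detection.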

Other observations

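An 8-base word recurred in the printed sequences and was searched for afterwards, so its values are a description. TGCGTCTC or its reverse complement lay within 75 bp of 3 of the 19 summits of sec and Rab genes (15.8%), at sec-61.G, sec-24.1 and sec-3. It lay at 124 of the 1303 promoter summits of all genes (9.52%) and in 22 of 2606 windows of the same width centred 400 bp to either side of them (0.844%). The sequences of sec-61.G and sec-24.1 are among those printed, so the member share follows in part from how the word was picked. A second word, GCGAGACC, was also searched for afterwards, so its values are likewise a description. Among the 19 summits it was found only at sec-24.1 and sec-16A.2 (10.5%), whose sequences are both printed above. It was found at 3.61% of all promoter summits and in 0.537% of the flanking windows. Because the word is in the printed sequences, its member share cannot be weighed against the share of all promoter summits.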
